A study of Mus musculus with 12 samples.

Results

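B cell and plasma cell genes were examined in bulk RNA-Seq of mouse skin: 9 genes chosen by symbol (Ms4a1, Cd79a, Cd79b, Cd22, Pax5, Jchain, Mzb1, Ighm and Igkc) out of the 55453 genes counted. The skin came from 12 female mice of the C57BL/6 strain, aged 8 to 12 weeks, in 4 groups of 3. WT PBS and WT BLM mice were wild type, and KO PBS and KO BLM mice carried the global Thy1-knockout. BLM mice received bleomycin, a drug that produces fibrosis at its injection site, at a daily dose of 10 mg/kg, and PBS was the vehicle control. Injections under the back skin were given on at most 14 days and the skin was taken on day 21, although the series text describes the whole 21 days as treatment. Controls were littermates, and every cell type of the knockout mice carries the deletion. The list was drawn up by symbol, with no threshold, but with results of these data already known. The values below therefore describe single genes and are not independent support for the list.

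B cells recognise antigen through a membrane immunoglobulin that signals through the paired chains Cd79a and Cd79b. Plasma cells, their antibody-secreting descendants, lose most of these surface molecules and fill with immunoglobulin, with J chain when they make IgA or IgM, and with endoplasmic reticulum chaperones such as Mzb1. Several of these transcripts are also known outside the lineage. Cd22 is expressed by microglia, which are tissue macrophages, Cd79b transcripts are found in some monocytes, Jchain and Mzb1 are typical of plasmacytoid dendritic cells, and the mu constant region can be transcribed without a joined variable segment. Ms4a1, Cd79a and Pax5 are far more restricted to B cells.

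Library totals ran from 26473700 to 38890450 counts, and levels are given as CPM after TMM scaling. Thy1 itself was detected in every mouse. It lay at 45.6 to 96.9 CPM in KO PBS against 104 to 150 CPM in WT PBS, and at 84.7 to 128 CPM in KO BLM against 231 to 416 CPM in WT BLM, so that each KO group lay below its WT counterpart. The mean log2 CPM of 21 growing hair markers was 9.78 to 10.41 in WT PBS and -0.19 to 3.80 in WT BLM. Among knockout mice it was 10.37 in KO PBS 136 against -0.62 and 2.28 in the other KO PBS mice, and 9.29 in KO BLM 141 against 5.39 and 6.42 in the other KO BLM mice. Results that turn on these mice are given with and without them.

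Cd79a, a signalling chain of the B cell receptor, and Cd22, a sialic acid-binding inhibitory co-receptor, both lie on chromosome 7 (GRCm38: Cd79a at chr7:24897381-24902197 on the plus strand, Cd22 at chr7:30865402-30880342 on the minus strand, GENCODE M21). They are shown first because they gave the most contrasting pair: Cd79a stayed near the detection limit, while Cd22 carried the largest difference among the 6 genes tested. The 250 bases before each RefSeq start site (GRCm38.p6, chr7:24897247-24897496 plus strand for Cd79a and chr7:30879029-30879278 minus strand for Cd22) read, 5′ to 3′, with motif matches in capitals:
Cd79a: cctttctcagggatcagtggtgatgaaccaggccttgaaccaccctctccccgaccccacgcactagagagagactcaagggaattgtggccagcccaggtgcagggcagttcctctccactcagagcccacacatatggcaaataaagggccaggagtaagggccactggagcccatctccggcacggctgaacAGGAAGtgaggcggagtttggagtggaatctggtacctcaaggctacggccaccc
Cd22: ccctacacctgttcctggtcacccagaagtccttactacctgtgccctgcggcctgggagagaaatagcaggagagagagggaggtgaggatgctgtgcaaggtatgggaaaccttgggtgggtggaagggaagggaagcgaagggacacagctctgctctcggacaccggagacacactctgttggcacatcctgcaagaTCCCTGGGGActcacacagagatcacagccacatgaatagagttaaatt
The search covered both strands for an ETS motif (AGGAAG), an octamer (ATGCAAAT) and an EBF motif (TCCC and GGGA separated by any 2 bases), recognised by families of factors active in B cells. The capitals mark the ETS match in Cd79a, starting at base -55 from the RefSeq start site, and the EBF match in Cd22, starting at base -49. The RefSeq and GENCODE starts differ. The Cd79a window runs past the GENCODE start at 24897381, and the whole Cd22 window lies within the GENCODE span. Both matches therefore lie inside the GENCODE genes. Of 32851 RefSeq promoter windows of this length, 29.5% held the ETS letters, 1.60% the octamer and 0.779% the EBF letters. Only 4 of the 9 genes (Cd22, Cd79a, Jchain and Pax5) were in the table, and the octamer matched in none of those 4 windows. A match is a description of letters and was not tested as a binding site.

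The 3 genes that are most restricted to B cells were barely detected in any group. Ms4a1 (CD20, chr19:11249675-11266241) had 0, 14 and 0 counts for WT PBS, 0, 0 and 3 for WT BLM, 0, 2 and 4 for KO PBS and 4, 0 and 0 for KO BLM. It was at 0 in 7 of 12 mice, which allows up to 3 counts in each, and 14 of its 27 counts came from WT PBS 160. Cd79a had 4, 22 and 6 counts for WT PBS, 0, 4 and 4 for WT BLM, 3, 1 and 5 for KO PBS and 4, 3 and 1 for KO BLM. Pax5, the transcription factor that fixes B cell identity (chr4:44524757-44710487), had 3, 4 and 4 counts for WT PBS, 11, 1 and 3 for WT BLM, 0, 4 and 0 for KO PBS and 4, 3 and 1 for KO BLM. Groups overlapped for Ms4a1 and Pax5. Cd79a was at 0.135, 0.724 and 0.153 CPM in WT PBS, above WT BLM (0 to 0.131 CPM) and KO BLM (0.0353 to 0.122 CPM), and overlapped KO PBS (0.0286 to 0.149 CPM). The nearest WT PBS and WT BLM mice both had 4 Cd79a counts, and WT PBS 160 held the highest Ms4a1 and Cd79a values. The counts were too low for the filter, so these 3 genes were not tested in the main edgeR fit. DESeq2 tested all 9 genes in WT BLM against WT PBS and called only Cd22 and Cd79b. A fall or a small change in these 3 genes was not detectable at this depth. In whole skin, fewer B cells and less RNA per B cell cannot be told apart. Counts do not state whether strand was used, so reads on Ms4a1 and Pax5 could include reads of antisense genes that overlap them (4930526L06Rik and Gm12462, respectively).

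**Figure D1:**
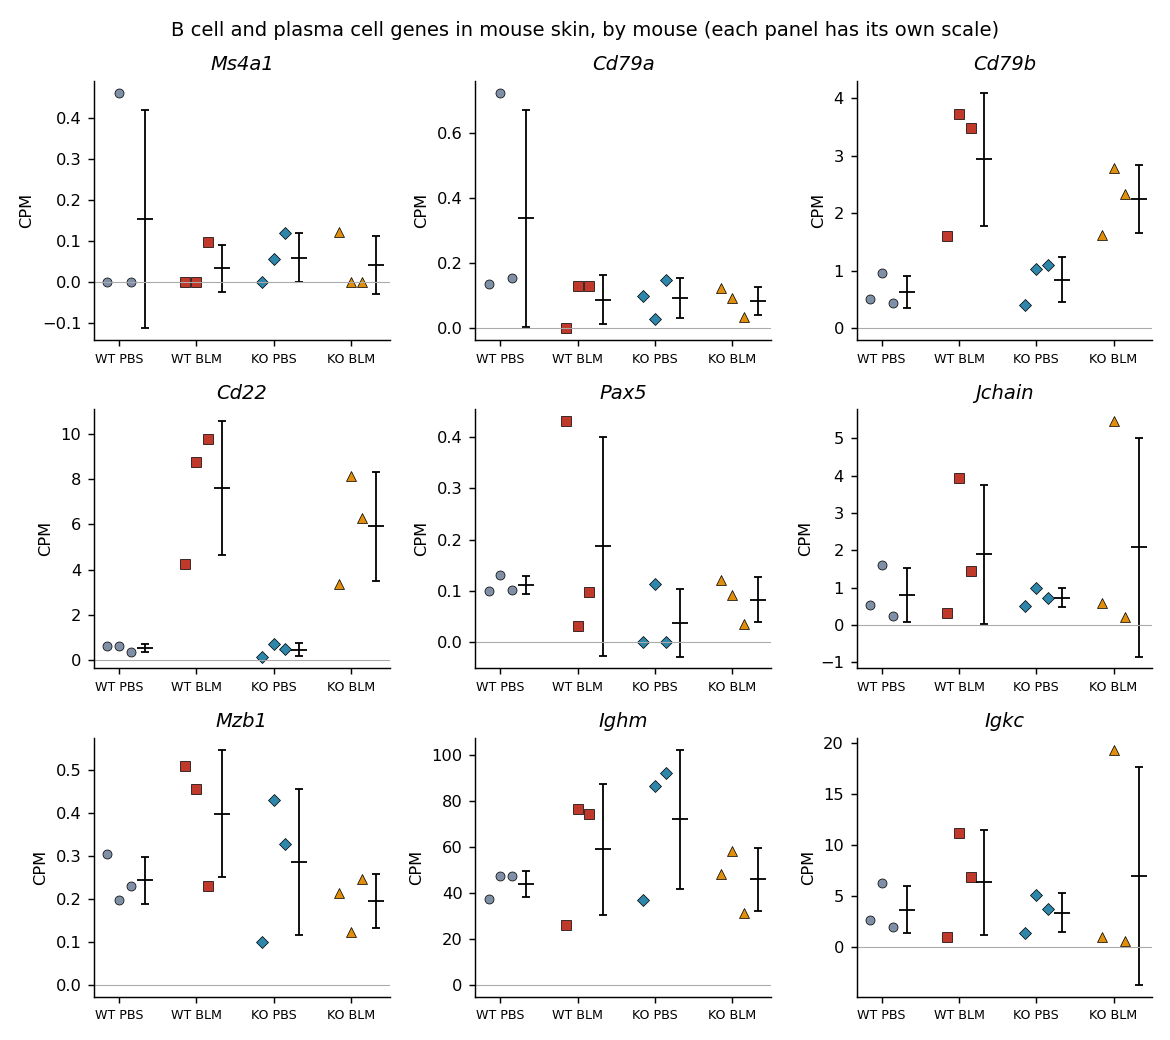
Levels of the 9 genes in each mouse (CPM, own scale per panel), with symbols for the 3 mice of each group and a bar for the mean ± SD. Cd22 and Cd79b are higher in every bleomycin-treated mouse than in every PBS mouse of the same genotype, Ms4a1 and Cd79a are highest in 1 WT PBS mouse, and Igkc and Jchain are highest in 1 KO BLM mouse.

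Cd22 and Cd79b were the genes of the list that rose after bleomycin. Cd22 was at 0.642, 0.625 and 0.357 CPM in WT PBS mice and at 4.23, 8.77 and 9.78 CPM in WT BLM mice. In the knockouts it was at 0.166, 0.743 and 0.507 CPM with PBS and at 3.37, 8.13 and 6.26 CPM with bleomycin. All bleomycin-treated mice lay above all PBS mice, and the order of group means was WT BLM (7.59 ± 2.96 CPM, SD, n = 3), KO BLM (5.92 ± 2.40), WT PBS (0.541 ± 0.160) and KO PBS (0.472 ± 0.290). The neighbours WT BLM and KO BLM overlapped, as did WT PBS and KO PBS. The fitted log2 difference was 3.81 (SE 0.56) between WT BLM and WT PBS, with an adjusted p of 0.00405 in edgeR's quasi-likelihood test over 18311 genes, and 3.62 (SE 0.56, adjusted p = 0.0387) between KO BLM and KO PBS. Reads of the antisense gene Gm29439, which overlaps Cd22, could be included in these counts.

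Cd79b, the other signalling chain of the receptor (chr11:106311341-106314762, minus strand), moved with a smaller size. It was at 0.507, 0.954 and 0.433 CPM in WT PBS and at 1.61, 3.72 and 3.48 CPM in WT BLM. The knockout values were 0.399, 1.03 and 1.10 CPM with PBS and 1.62, 2.79 and 2.33 CPM with bleomycin. Again every bleomycin-treated mouse lay above every PBS mouse. The log2 difference was 2.22 (SE 0.48, edgeR adjusted p = 0.0105) in WT mice and passed the test, whereas 1.40 (SE 0.47, edgeR adjusted p = 0.162) in the knockouts did not. Cd79b rose in WT BLM while its partner Cd79a was at 4 counts or fewer in the same 3 mice. Per kilobase of exon, Cd79b averaged 2.05 ± 0.808 CPM and Cd79a 0.0599 ± 0.0518 CPM in WT BLM, against 0.441 ± 0.197 and 0.231 ± 0.230 CPM in WT PBS (SD, n = 3).

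Of the 6 genes that passed the filter, 2 were called higher in WT BLM against WT PBS, a comparison in which 34.0% of all genes tested were called and 19.8% were called higher. Groups did not overlap for those 2, against 57.0% of all genes. The median log2 difference was 1.03 over the 6 genes and 0.02 over all genes. Between KO BLM and KO PBS, 1 of 6 was called, with 0.306% of all genes called and 0.251% called higher, and groups did not overlap for 2, against 19.3% of all genes. The knockout call for Cd22 rested on the spread of all 4 groups. Its log2 difference stayed between 3.23 and 4.10 with any 1 mouse left out, but the edgeR adjusted p was 0.0692, 0.0718 and 0.0708 without WT PBS 159, 160 and 161, and 0.0511 and 0.0638 without WT BLM 146 and 147. It was 0.0685 and 0.153 without KO PBS 137 and 139, and 0.115 and 0.139 without KO BLM 143 and 144. These fits called 0.0% to 0.102% of all genes in this comparison, beside 0.306% with every mouse, so the loss was not particular to Cd22. Without KO PBS 136 and KO BLM 141 together, the Cd22 difference was 3.51 with an edgeR adjusted p of 0.00572, where 22.3% of all genes were called.

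**Figure D2:**
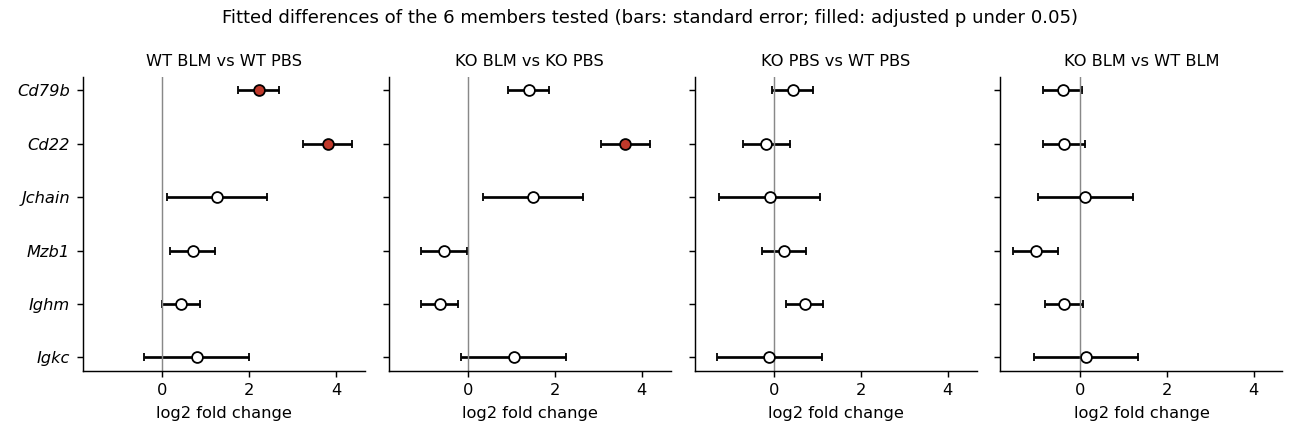
Fitted log2 fold changes of the 6 genes tested in 4 comparisons, with bars for the standard error and filled points for an adjusted p under 0.05. Cd22 is filled in both bleomycin comparisons (3.81 and 3.62), Cd79b in WT mice (2.22), and no point is filled in the comparisons between genotypes.

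Cd22 and Cd79b followed each other from mouse to mouse (Pearson r = 0.95 over 12 mice, and 0.89 after subtracting group means). Over the 15218 genes that averaged 1 CPM or more, patterns like Cd79b were found for the inhibitory-receptor family gene Cd300c2 (r = 0.977) and Ms4a7 (r = 0.969). Ms4a7 is a relative of Ms4a1 that is expressed by macrophages. It was at 6.19 ± 0.54 CPM for WT PBS, 56.1 ± 21.6 for WT BLM, 11.3 ± 6.2 for KO PBS and 44.5 ± 18.2 for KO BLM (SD, n = 3), while Ms4a1 averaged at most 0.154 CPM in any group. Those most like Cd22 were Il21r, the interleukin-21 receptor (r = 0.978), Gng11, a G protein gamma subunit (r = 0.976), and Tfpi2, a serine protease inhibitor (r = 0.972). These correlations describe the same 12 libraries, whose group differences alone raise them.

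Markers of other immune cells moved with Cd22 and Cd79b. The mean log2 CPM of 15 macrophage markers was 4.39 to 5.27 for WT PBS, 6.43 to 7.09 for WT BLM, 4.33 to 6.20 for KO PBS and 6.03 to 6.38 for KO BLM, and 12 of the 15 were called higher in WT BLM against WT PBS, beside 19.8% of all genes. For 12 T cell markers the ranges were 0.84 to 0.90, 2.36 to 2.75, 0.62 to 1.97 and 2.20 to 3.22, with 10 called higher. For 7 plasmacytoid dendritic cell markers they were -0.10 to 0.25, 2.10 to 2.57, 0.27 to 0.84 and 1.44 to 2.05, with 4 called higher (Klk1, Cox6a2, Lair1 and Ly6c2). Klk1 had 0 to 2 counts per mouse in WT PBS, 2 to 3 in KO PBS and 18 to 27 in WT BLM. It passed the filter on low counts through bleomycin-treated mice only, so its call carries no weight as a test. Siglech (log2 difference 1.43, edgeR adjusted p = 0.126), Ccr9 (0.79, edgeR adjusted p = 0.175) and Pacsin1 (-0.13, edgeR adjusted p = 0.916) of that list were not called. The log2 differences of the 4 called were 5.05 for Ly6c2, 4.96 for Klk1, 3.42 for Lair1 and 2.38 for Cox6a2. All 7 genes, Klk1 and Cox6a2 among them, enter the mean of the list, which therefore does not measure that cell type alone. Cox6a2 is also a respiratory chain subunit of striated muscle, and the mean of 8 skeletal muscle markers was 8.66 to 9.08 for WT PBS and 10.40 to 11.59 for WT BLM, with 7 called higher. None of the macrophage or T cell markers was at 3 counts or fewer throughout a group, and 1 of the 7 plasmacytoid dendritic cell markers was so in WT PBS and 1 in KO PBS. Over 12 mice, the macrophage mean correlated with Cd79b at r = 0.91 and with Cd22 at r = 0.85. The link was not particular to macrophages. For the T cell mean r was 0.90 with Cd79b and 0.90 with Cd22. For the plasmacytoid dendritic cell mean it was 0.89 and 0.93, and for keratinocyte and skin markers 0.82 and 0.75. With Cd79a and Ms4a1, which had few counts, the macrophage mean correlated at r = -0.41 and -0.07. The part of these cell types in the 2 increases was not tested.

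**Figure D3:**
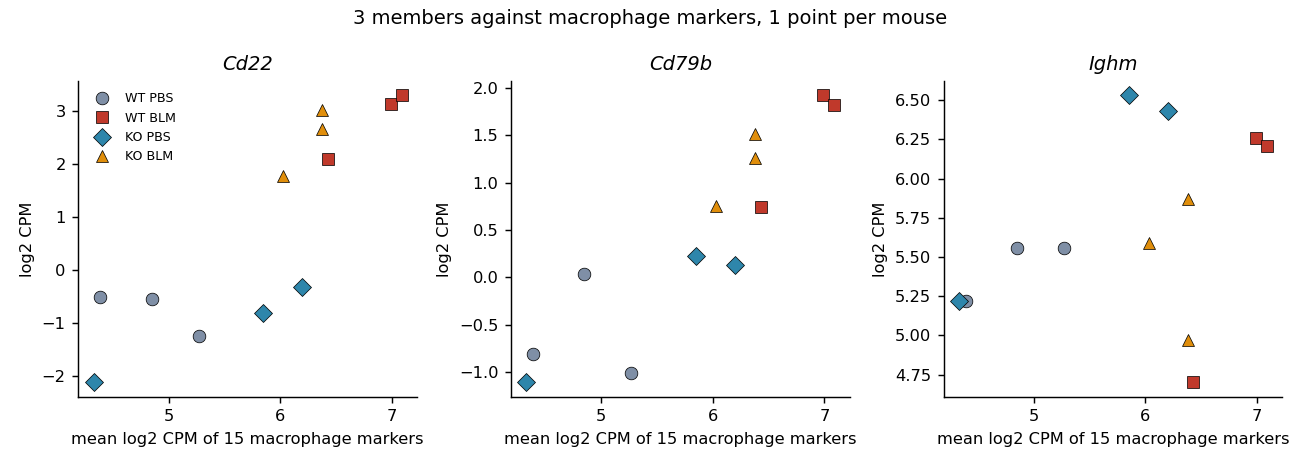
Log2 CPM of Cd22, Cd79b and Ighm (vertical axes) against the mean log2 CPM of 15 macrophage markers (horizontal axes), with 1 point per mouse coloured by group. Cd79b (r = 0.91) and Cd22 (r = 0.85) increase along the axis, whereas Ighm spreads widely (r = 0.37).

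The hair values moved with the WT comparison too. With the mean of the hair list as a covariate, the log2 differences between WT BLM and WT PBS were 2.53 for Cd22 (edgeR adjusted p = 0.198) and 1.46 for Cd79b (edgeR adjusted p = 0.489), neither called. The hair mean did not overlap between these 2 groups, and that fit called 0.0765% of all genes, beside 34.0% without the covariate. The lost calls were therefore not particular to the 2 genes. In that same fit Cd22 differed by 4.22 between KO BLM and KO PBS, with an edgeR adjusted p of 0.00458, where 8.91% of all genes were called.

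Ighm, the constant region of IgM heavy chains (chr12:113418558-113422730, minus strand), had the most counts of the 9 genes in every mouse, and per kilobase of exon the highest level in every mouse but KO BLM 143. Counts were 1100, 1435 and 1855 for WT PBS, 664, 2350 and 2262 for WT BLM, 1116, 3024 and 3096 for KO PBS and 1573, 1884 and 882 for KO BLM. Levels were 37.2, 47.2 and 47.3 CPM, 26, 76.6 and 74.2 CPM, 37.1, 86.4 and 92.2 CPM, and 48.1, 58.4 and 31.2 CPM in the same order. All 4 groups overlapped, with the highest values in KO PBS 139 and 137 and the lowest in WT BLM 145. The log2 difference was 0.43 (SE 0.43, edgeR adjusted p = 0.453) in WT mice and -0.65 (SE 0.43, edgeR adjusted p = 0.411) in knockouts, so no change was called.

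Ighm stood out of proportion to the other immunoglobulin transcripts. It made up 59.2% to 91.6% of the counts on heavy-chain constant regions of a mouse, with a median of 84.2%. Per kilobase of exon, the ratio of Ighm to Igkc, the constant region of kappa light chains, ran from 0.854 in KO BLM 143 to 15.5 in KO BLM 144, with a median of 5.81. Reads on heavy-chain variable segments numbered 0.680 to 11.8 for every 100 Ighm reads. These are raw counts, not divided by exon length, and include variable reads of other heavy-chain classes. This last ratio alone therefore does not show a disproportion. Over 12 mice the genes most like Ighm were Cd209a (r = 0.964, Spearman rho = 0.958), Ccdc80 (r = 0.947) and Clec10a (r = 0.942). Cd209a and Clec10a encode C-type lectins of dendritic cells and macrophages, and Ccdc80 a matrix protein of fibroblasts and fat cells. Cd209a was at 13.3 ± 3.4 CPM for WT PBS, 16.9 ± 8.3 for WT BLM, 28.2 ± 16.2 for KO PBS and 12 ± 5.5 for KO BLM (SD, n = 3), the same order of groups as Ighm except for the 2 lowest. The mean of 8 adipocyte markers also moved with Ighm (r = 0.76). Among the lymph node stroma markers, Ccl21a was at 0 in every mouse, and Glycam1 had 0 to 5 counts in mice of the other groups and 3 to 22 in KO BLM. How reads that match several genes were counted is not known, so the 0 of Ccl21a does not show its absence. Enpp2, the 1 gene of that list tested, ran from 22.5 CPM in a WT BLM mouse to 106 CPM in a KO PBS mouse. It correlated with Ighm at r = 0.83.

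Igkc (chr6:70726435-70726966, plus strand) and Jchain, the chain that joins IgA and IgM units into polymers (chr5:88519809-88527891, minus strand), varied from mouse to mouse rather than from group to group. Igkc was at 2.64, 6.25 and 1.96 CPM for WT PBS, 0.940, 11.1 and 6.86 CPM for WT BLM, 1.30, 5.06 and 3.69 CPM for KO PBS and 0.979, 19.3 and 0.566 CPM for KO BLM. Jchain was at 0.541, 1.61 and 0.255 CPM, 0.313, 3.95 and 1.44 CPM, 0.499, 1 and 0.715 CPM, and 0.582, 5.46 and 0.212 CPM in the same order. KO BLM 143 was highest for both genes, WT BLM 146 came next, and KO BLM 144, treated like the former, was lowest for both. All groups overlapped. The log2 differences with bleomycin were 0.80 (SE 1.21, edgeR adjusted p = 0.622) for Igkc and 1.26 (SE 1.15, edgeR adjusted p = 0.405) for Jchain in WT mice. In the knockouts they were 1.05 (SE 1.21, edgeR adjusted p = 0.641) and 1.49 (SE 1.15, edgeR adjusted p = 0.478), and without KO BLM 143 they turned to -2.11 and -0.88. Igkc lies within the lincRNA gene Gm30211 on the same strand, and reads could be shared between them.

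The gene most like Igkc in these mice was Jchain (r = 0.927, Spearman rho = 0.923), followed by Igha, the constant region of IgA heavy chains (r = 0.895). The relations held within groups, since after subtracting group means Igkc correlated with Jchain at r = 0.96 and with Igha at r = 0.95. They were not limited to these genes. By the same measure Igkc correlated with Ighm at r = 0.77, with Cd79b at 0.73 and with Cd22 at 0.71, but with Mzb1 at -0.19. Igha was at 6.31 ± 4.62 CPM for WT PBS, 11.1 ± 7.6 for WT BLM, 5.51 ± 3.17 for KO PBS and 14.9 ± 19.8 for KO BLM (SD, n = 3). It was the leading class-switched constant region, with 57 to 1219 counts per mouse, the 1219 in KO BLM 143, and was not called with bleomycin in WT (log2 difference 0.82, SE 0.98, edgeR adjusted p = 0.530). Ighg1, the constant region of IgG1, averaged 1.30 CPM for WT PBS, 1.07 for WT BLM, 2.69 for KO PBS and 1.01 for KO BLM, and Ighe had at most 4 counts in any mouse. Of the 13 constant-region genes, 12 had a count and 7 were tested, and Iglc3 was the one called, in WT BLM against WT PBS, where 34.0% of all genes were called. Its counts were 0, 1 and 1 against 2, 10 and 18. It passed the filter on low counts through 3 bleomycin-treated mice and 0 PBS mice, so its call carries no weight as a test, and the near-identical lambda genes can share reads. Iglc4 had no count.

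**Figure D4:**
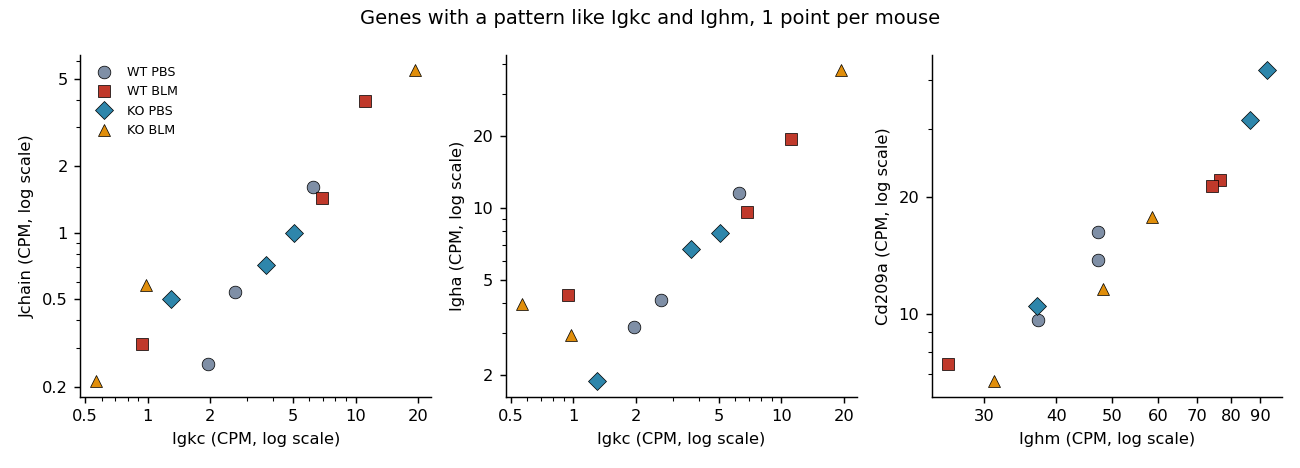
CPM of Jchain and Igha against Igkc, and of Cd209a against Ighm, on log axes with 1 point per mouse coloured by group. Igkc and Jchain lie along a line on which groups mix (r = 0.927), with KO BLM mice at both ends, and Ighm and Cd209a lie along another (r = 0.964), with 2 KO PBS mice at its upper end.

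Variable segments, the part of an antibody that differs between B cell clones, were counted on their own rows. Of 183 heavy-chain segments 68 had a count, and of 160 kappa segments 60 had one, with 710 and 841 counts over all 12 mice. Reads on all variable segments numbered 39, 194 and 80 for WT PBS, 14, 344 and 166 for WT BLM, 34, 123 and 90 for KO PBS and 66, 510 and 15 for KO BLM. The mice with most of these reads were again KO BLM 143 and WT BLM 146. The number of segments detected was greatest in WT PBS 160, with 68 segments in 194 counts. That mouse also had the most Ms4a1 and Cd79a counts. KO BLM 143 had 41 segments in 510 counts. The leading segment held 6.70% of the variable reads in WT PBS 160 (Wilson 95% interval 3.96% to 11.1%), 13.1% in KO BLM 143 (10.5% to 16.3%) and 18.9% in WT BLM 146 (15.1% to 23.4%). These intervals cover counting error only, and segments of similar sequence can exchange reads.

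**Figure D5:**
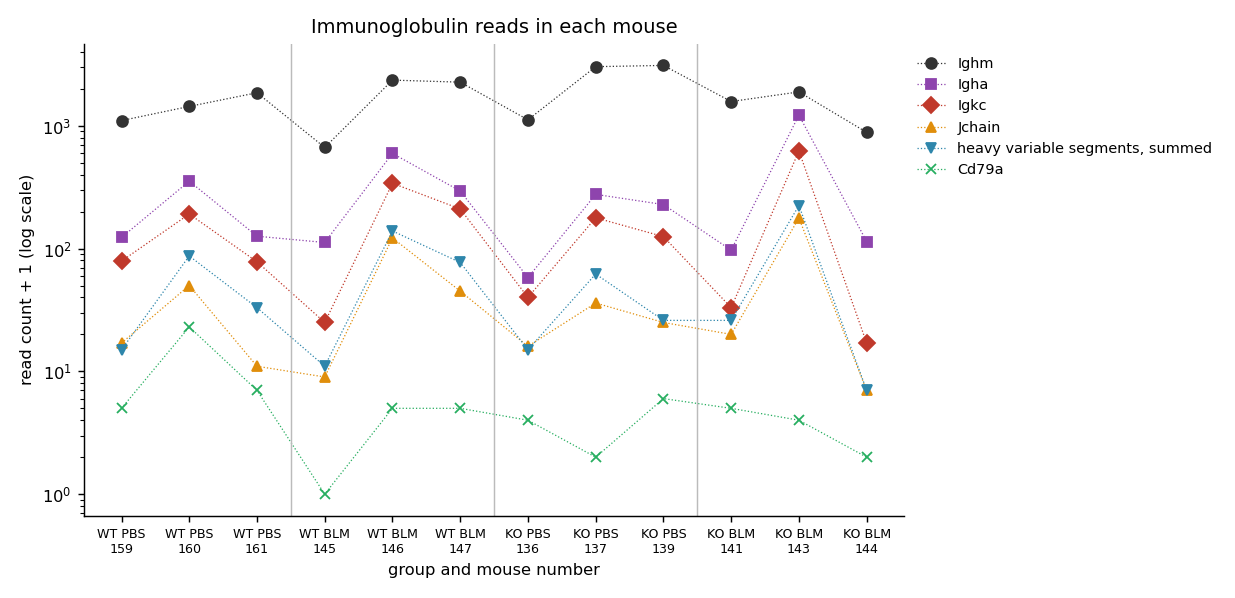
Read counts plus 1 (log scale) of Ighm, Igha, Igkc, Jchain, Cd79a and the sum of heavy-chain variable segments in each of the 12 mice, in order of group. Ighm is high in every mouse, Igha, Igkc, Jchain and the variable segments go up and down together with their peak in KO BLM 143, and Cd79a has its peak of 22 counts in WT PBS 160.

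Mzb1, the chaperone of plasma cells, was low throughout, at 0.304, 0.197 and 0.229 CPM for WT PBS, 0.509, 0.456 and 0.230 CPM for WT BLM, 0.0997, 0.429 and 0.328 CPM for KO PBS and 0.214, 0.124 and 0.247 CPM for KO BLM. These are 3 to 15 counts per mouse, and the groups overlapped. At these few counts its correlation with Igkc was -0.05 and with Jchain -0.11, and in KO BLM 143, where both of those were highest, it had 4 counts. Its log2 difference was 0.70 (SE 0.51, edgeR adjusted p = 0.298) in WT mice and -0.56 (SE 0.53, edgeR adjusted p = 0.566) in knockouts. The genes most like it were Lingo3 (r = 0.921), Pdk4 (r = 0.907) and E2f6 (r = 0.904). It overlaps Spata24 on the same strand, and its few counts could include reads of that gene.

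Between genotypes, 0 of the 6 genes were called, whether with PBS (0.0655% of all genes called) or with bleomycin (0.0928%). In edgeR 0 of 6 had an unadjusted p under 0.05 in either comparison, and DESeq2 called 0. The smallest edgeR adjusted p was 0.334, for Ighm in KO PBS against WT PBS (log2 difference 0.71, SE 0.43), and 0.344, for Mzb1 in KO BLM against WT BLM (-1.01, SE 0.52). Groups overlapped for all 6 genes in both comparisons, in which 18.9% and 27.5% of all genes did not overlap. The approximate 95% intervals were wide: for Cd22 they ran from -1.26 to 0.91 with PBS and from -1.31 to 0.59 with bleomycin, and for Igkc from -2.47 to 2.26 and from -2.19 to 2.48.

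The bleomycin response itself was compared between genotypes with the contrast of the 2 differences. None of the 6 genes was called in edgeR (0.0% of all genes called), 0 had an unadjusted p under 0.05, and DESeq2 called 0. For Cd22 the knockout response minus the WT response was -0.19 (SE 0.74, interval -1.64 to 1.26, edgeR adjusted p = 0.876), and for Cd79b -0.81 (SE 0.66, interval -2.11 to 0.48, edgeR adjusted p = 0.403). Both intervals include 0 as well as differences of more than 1 on the log2 scale. Ighm differed by -1.07 (SE 0.61, interval -2.26 to 0.12, edgeR adjusted p = 0.240) and Mzb1 by -1.26 (SE 0.73, interval -2.70 to 0.18, edgeR adjusted p = 0.253).

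Other genes of the B lineage were read from 4 lists. Of 24 further B cell identity genes, 20 were tested, and 8 were called higher and 2 lower in WT BLM against WT PBS (50%, beside 34.0% of all genes). Cd72, a receptor of B cells that is also expressed by macrophages, was at 3.93 ± 0.43 CPM in WT PBS and 40.3 ± 11 in WT BLM (SD, n = 3), a log2 difference of 3.36 (SE 0.46, edgeR adjusted p = 0.00355). Pou2f2, which encodes the octamer-binding factor Oct-2, rose by 2.51 (SE 0.35, edgeR adjusted p = 0.00379). Tnfrsf13c, the BAFF receptor, was lower, at 0.586 ± 0.327 against 5 ± 1.53 CPM (log2 difference -3.10, SE 0.77, edgeR adjusted p = 0.0161). Fcrl1 and Fcrla, Fc receptor-like genes of B cells, were also called higher. Fcrl1 was at 0.146 ± 0.053 CPM in WT PBS and 0.606 ± 0.255 in WT BLM (log2 difference 2.01, SE 0.65, edgeR adjusted p = 0.0392), and Fcrla at 0.235 ± 0.030 and 0.710 ± 0.260 CPM (1.60, SE 0.44, edgeR adjusted p = 0.0229). Both needed bleomycin-treated mice to pass the filter on low counts, so their calls carry no weight as a test. Of the PBS mice, 1 reached the cutoff for Fcrl1 and 2 for Fcrla, where 3 mice were needed. The 8 genes called higher and the share of 50% include them. Other members had few counts: Cr2, the complement receptor of B cells, had 0 to 7 counts per mouse, Vpreb3 0 to 5, and Cxcr5, the homing receptor for follicles, 0 to 11.

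Signalling genes that act below the B cell receptor but are shared with myeloid cells gave more calls. Of 24 tested, 20 were called higher and 0 lower in WT BLM against WT PBS, with a median log2 difference of 1.52 against 0.02 over all genes. One of them was Pik3ap1, an adaptor for PI3K (2.56, SE 0.56, edgeR adjusted p = 0.0106). Of 20 plasma cell and secretion genes, 4 were called higher and 1 lower, a share of 25% beside 34.0% of all genes, which does not set the list apart. Slamf7 (2.29, SE 0.44, edgeR adjusted p = 0.00724), a receptor of plasma cells that macrophages also carry, led, followed by Tnfrsf13b, the TACI receptor (1.81, SE 0.38, edgeR adjusted p = 0.00921), and Fkbp11, a folding enzyme (1.37, SE 0.38, edgeR adjusted p = 0.0228). Prdm1, which drives plasma cell differentiation and also acts in keratinocytes, was lower (-1.06, SE 0.36, edgeR adjusted p = 0.0436), and Tnfrsf17 (BCMA), restricted to late B cells and plasma cells, had 2 to 21 counts per mouse. Of 14 attracting and survival factors tested, 3 were called higher (21.4%, beside 19.8% of all genes called higher), a share near that of all genes. They were Ltb (1.79, SE 0.47, edgeR adjusted p = 0.0197), Tnfsf13 (APRIL, 1.43, SE 0.45, edgeR adjusted p = 0.0348) and Cxcr4 (0.88, SE 0.22, edgeR adjusted p = 0.0162). Cxcl13, the chemokine that draws B cells to follicles, averaged 2.10 CPM in WT PBS and 0.568 CPM in WT BLM. The groups overlapped and it was not called (-1.87, SE 0.73, edgeR adjusted p = 0.0688). In the knockouts it averaged 5.18 CPM with PBS and 1.10 CPM with bleomycin, also with overlap and not called (-2.24, SE 0.71, edgeR adjusted p = 0.156).

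These WT counts moved when mice were left out, as did the share of all genes called, which was 13.9% to 21.5% without a WT mouse, 28.2% and 29.7% without KO BLM 143 and 144, and 45.7% without KO PBS 136. The 10 calls among B cell identity genes became 4, 6 and 6 without WT PBS 159, 160 and 161, and 6 and 5 without WT BLM 146 and 147. The 20 signalling calls became 11 without WT PBS 159. The 5 plasma cell calls became 2 without WT PBS 159 or 160 or WT BLM 146 or 147, and 3 without WT PBS 161, WT BLM 145, KO BLM 143 or KO BLM 144. The 3 calls among attracting and survival factors became 1 without any WT PBS mouse or without WT BLM 147, and 5 without KO PBS 136. With the hair list as a covariate edgeR called 0 in each of the 4 lists between WT BLM and WT PBS, where it called 0.0765% of all genes.

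In the knockouts the same lists gave 0 calls between KO BLM and KO PBS in edgeR, with 8, 5, 3 and 6 genes at an unadjusted p under 0.05 (20.0% of all genes) and 2, 1, 2 and 4 called by DESeq2 (6.14% of all genes), in the order above. Without KO PBS 136, edgeR called 4, 0, 3 and 2 (2632 of all 18739 genes), and without KO BLM 141 it called 1, 0, 2 and 0 (6.19%). With the hair list as a covariate it called 3, 7, 1 and 2 between KO BLM and KO PBS, where it called 8.91% of all genes. Between KO PBS and WT PBS edgeR called 0 in each list (3, 12, 2 and 0 at an unadjusted p under 0.05, beside 20.4% of all genes, and 0, 1, 0 and 0 by DESeq2, beside 3.83%). Without KO PBS 136, the mouse with the high hair values, it called 7, 17, 9 and 0, and 36.7% of all genes. Between KO BLM and WT BLM edgeR called 0 (2, 2, 0 and 2 at an unadjusted p under 0.05, beside 16.6% of all genes, and 1, 1, 0 and 0 by DESeq2, beside 3.34%), and without KO PBS 136 it called 2, 3, 0 and 0, and 6.89% of all genes. In the contrast of the 2 bleomycin responses edgeR called 0 in each list, with 7, 17, 4 and 0 at an unadjusted p under 0.05 (31.1% of all genes) and 4, 9, 1 and 0 by DESeq2 (18.5%). Without KO PBS 136 it called 10, 20, 11 and 0, and 39.9% of all genes. Of the 6 main genes tested, 0 were called between genotypes or in the contrast of responses, with or without KO PBS 136.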

How the data were processed

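Skin RNA of 12 mice was sequenced from stranded mRNA libraries, and the authors deposited raw read counts per gene symbol, without normalization, for 55453 genes. The labels name GRCm38.p6 and MultiQC 1.7. The aligner, the counting tool and the use of strand are not given in the sources used here. Positions came from GENCODE M21 by symbol (98.1% matched 1 gene), and promoter windows from RefSeq (GRCm38.p6).

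Library totals ran from 26473700 to 38890450 counts. Genes were filtered with filterByExpr in edgeR 4.0.16 (10 counts in the smaller group after scaling, 15 in total), which kept 18311. Counts were scaled by TMM and fitted in edgeR's quasi-likelihood framework with 1 mean per group, for 4 groups (biological coefficient of variation 34.9%). Contrasts were adjusted by Benjamini-Hochberg over all genes tested, with a threshold of 0.05. Log2 CPM values carry a prior count of 2. Mice are separate animals with their own numbers, so p-values measure the spread between mice. Values per kilobase divide CPM by the exon length of the gene. Intervals of log2 differences are 95% normal approximations, and those of shares are Wilson intervals.

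The 9 genes, the companion lists and the marker lists were chosen with earlier results of these data known. From each of the 4 companion lists, up to 3 called genes with the greatest absolute log2 difference were named per comparison, with listed genes at no more than 3 counts in every mouse. Other genes named (Cr2, Vpreb3, Cxcr5, Tnfrsf17, Cxcl13, Prdm1, Bcl11a, Spib, Fcrl1, Fcrla, Ccl21a, Glycam1, Enpp2 and the plasmacytoid dendritic cell markers) were chosen after their values were seen. The 3 genes with the highest Pearson correlation over 12 mice were named for each tested gene. Some genes that these rules name are not reported here. Alternatives were DESeq2 1.42.0, RLE and upper-quartile scaling, no filter, a mean of at least 1 CPM, only the 2 groups compared, each mouse left out, KO mice 136 and 141 left out together, and the hair list as a covariate. The steps were tested on simulated counts. R 4.3.3 and Python 3.11.15 were used.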

Additional observations from a re-analysis of the deposited data

How the results depend on the processing

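No paired analysis was possible because every mouse has its own number. In WT BLM against WT PBS, 2 of the 9 genes were called under each alternative except with the hair list as a covariate, and with each mouse left out the count was 2 throughout. With the hair list as a covariate 0 were called, where 0.0765% of all genes were called. In KO BLM against KO PBS, 1 was called, and from 0 to 1 with a mouse left out. With only the 2 groups compared, 0 were called (Cd22 at 3.63, edgeR adjusted p = 0.280), where 0.0% of all genes were called. The counts of 0 between genotypes and in the contrast of responses held under the alternatives run. The cause of these changes was not tested.

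Directions turned only for differences that were not called. With the hair list as a covariate, WT BLM against WT PBS was -0.26 for Mzb1, -0.17 for Ighm and -0.49 for Igkc. KO PBS against WT PBS was then -0.21 for Cd79b and -0.56 for Mzb1. KO BLM against WT BLM was 0.08 for Cd79b, 0.40 for Cd22 and 0.02 for Ighm, and the contrast of responses was 0.29 for Cd79b, 1.68 for Cd22 and 0.18 for Mzb1. Without KO mice 136 and 141, KO PBS against WT PBS was 0.22 for Cd22, 0.12 for Jchain and 0.28 for Igkc.

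With a mouse left out, KO PBS against WT PBS ranged from -0.65 to 0.22 for Cd22, -0.53 to 0.53 for Igkc, -0.50 to 0.89 for Jchain and -0.16 to 0.63 for Mzb1. KO BLM against KO PBS ranged from -2.11 to 1.59 for Igkc and -0.88 to 2.02 for Jchain, the lowest values without KO BLM 143. KO BLM against WT BLM ranged from -3.01 to 0.83 for Igkc and -2.24 to 1.23 for Jchain. The contrast of responses ranged from -0.58 to 0.29 for Cd22, -2.91 to 0.93 for Igkc and -2.13 to 1.33 for Jchain.

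Depth limits Ms4a1, Cd79a and Pax5, which had 27, 57 and 38 counts over all mice. With 3 mice per group, changes of Igkc and Jchain have standard errors above 1 on the log2 scale.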

Other observations

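Other immunoglobulin classes and B lineage factors gave low or mixed values. Ighd, the constant region of the IgD that naive B cells carry with IgM, was at 1.29 ± 0.28 CPM for WT PBS, 0.883 ± 0.088 for WT BLM, 1.80 ± 0.96 for KO PBS and 0.683 ± 0.286 for KO BLM (SD, n = 3). It was not called with bleomycin in WT mice (log2 difference -0.54, SE 0.46, edgeR adjusted p = 0.374) or in knockouts (-1.39, SE 0.47, edgeR adjusted p = 0.165). Ighg2c, an IgG2 class of this strain, had at most 41 counts, in a WT BLM mouse, and Ighg2b at most 33, in a WT PBS mouse. Reads on kappa variable segments numbered 0.0417 to 0.719 for each Igkc read, with a median of 0.428, the lowest in WT BLM 145.

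Bcl11a, a transcription factor of B cells and plasmacytoid dendritic cells that also acts in skin, was lower in WT BLM (16.8 ± 1.4 CPM) than in WT PBS (41.3 ± 5.8 CPM), with a log2 difference of -1.30 (SE 0.21, edgeR adjusted p = 0.00478). Spib, a factor of the same 2 cell types, was higher (log2 difference 2.12, SE 0.56, edgeR adjusted p = 0.0202), at 1.35 ± 0.74 CPM against 0.312 ± 0.112 CPM (SD, n = 3).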
